A study of Homo sapiens with 6 samples.

Results

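The NRF2 antioxidant targets are a set of 9 genes chosen by name from the deposited expression table, which lists 35856 genes. They comprise NFE2L2, which encodes the transcription factor NRF2, and 8 genes that NRF2 is known to switch on, namely SLC7A11, GCLC, GCLM, TXNRD1, SRXN1, NQO1, HMOX1 and OSGIN1. All 9 were found in the table and all passed the filter on low counts. The rule reads only gene names, but the set was proposed with earlier results of these data known. RNA sequencing covered 6 libraries labelled as HCCLM3, an established human hepatocellular carcinoma cell line. In 3 libraries, labelled LINC00862, the cells carried a vector for that long non-coding RNA, and the 3 control libraries are labelled NC. The treatment note, which is the same for all samples, names an empty vector as the only other transfection, and no title ties it to NC. No other allele or agent is named for either group. Both groups are labelled with the same cell line, but their cell identity markers, given with the libraries below, differ widely, and whether they are the same line was not tested. The labels do not say whether the cells were a clone or a transfected pool, and nothing says that the 3 libraries of a group came from separate cultures. The p-values therefore measure only the spread between these libraries, which may be technical.

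NRF2 is held at a low level in unstressed cells by KEAP1, which presents it to the CUL3 ubiquitin ligase for degradation. Oxidants and electrophiles disable KEAP1, and NRF2 then accumulates, pairs with a small MAF protein and binds antioxidant response elements near its target genes, while BACH1 competes for the same elements. The targets supply glutathione, reduced thioredoxin and NADPH, and they clear quinones and heme. In liver tumours the pathway is known for carrying activating mutations in NFE2L2 and inactivating ones in KEAP1, neither of which was examined here.

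RefSeq gives promoter windows for 7 of the 9 members, 9 windows in all, on GRCh38.p14. Each covers 250 bases before a transcription start and 50 after it. HMOX1 and SLC7A11 had no entry. The windows were searched on both strands for the core of the antioxidant response element, TGACNNNGC, for the AP-1 site TGANTCA, and for the longer NF-E2 type site, whose letters contain those of AP-1. The core was found in 3 windows of 2 members, GCLM and TXNRD1, and 13.3% of all 35116 windows in the table hold it. The AP-1 letters were found in OSGIN1 and in 7.71% of all windows. The NF-E2 type site was found in no window of a member and in 0.154% of all windows. The windows with a match are shown because, among the windows searched, they carry the letters NRF2 or a related factor can read. Sequence outside these windows was not searched, so a member without a match here may hold such letters elsewhere. Only the 250 bases before the start are printed, 5′ to 3′ on the strand of the gene, and capitals mark the matches.
GCLM, minus strand, chr1:93909431-93909680: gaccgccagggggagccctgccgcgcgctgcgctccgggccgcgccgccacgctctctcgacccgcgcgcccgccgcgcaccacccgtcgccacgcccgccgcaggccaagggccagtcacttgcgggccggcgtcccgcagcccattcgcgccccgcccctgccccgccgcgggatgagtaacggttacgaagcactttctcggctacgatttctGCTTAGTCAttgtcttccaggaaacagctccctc
TXNRD1 first window, plus strand, chr12:104215529-104215778: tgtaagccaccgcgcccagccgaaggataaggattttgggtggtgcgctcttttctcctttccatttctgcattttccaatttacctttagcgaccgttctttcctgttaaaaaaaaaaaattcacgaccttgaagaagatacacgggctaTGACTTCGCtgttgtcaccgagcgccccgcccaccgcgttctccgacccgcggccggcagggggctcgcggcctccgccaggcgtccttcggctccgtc
TXNRD1 second window, plus strand, chr12:104286782-104287031: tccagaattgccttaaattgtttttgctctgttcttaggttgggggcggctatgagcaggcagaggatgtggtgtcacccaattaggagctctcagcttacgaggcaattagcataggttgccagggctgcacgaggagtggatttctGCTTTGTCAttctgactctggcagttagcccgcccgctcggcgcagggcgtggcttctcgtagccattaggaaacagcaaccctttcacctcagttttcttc
OSGIN1, plus strand, chr16:83952990-83953239: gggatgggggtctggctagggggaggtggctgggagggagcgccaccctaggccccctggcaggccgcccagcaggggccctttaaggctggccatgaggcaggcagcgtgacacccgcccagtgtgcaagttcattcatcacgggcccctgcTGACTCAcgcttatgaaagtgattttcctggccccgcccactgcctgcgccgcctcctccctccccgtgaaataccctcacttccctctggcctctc

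In GCLM the core lay on the opposite strand, from 34 to 26 bases before the start, and read TGACTAAGC. In TXNRD1 it read TGACTTCGC from 99 to 91 bases before the start of the first window and, on the opposite strand, TGACAAAGC from 102 to 94 bases before that of the second. KEAP1, the repressor of NRF2, held the letters TGACTAAGC as well, from 31 to 23 bases before a start and on the opposite strand, and TGACACGGC from 54 to 46 bases before the same start on its own strand. TXNRD1 held a further match, TGACGGAGC, that begins 8 bases before the start of its first window and runs past it. Such matches are a description of the letters, and factor binding was not measured in these libraries.

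The 6 libraries held between 58241123 and 68229070 counts. LINC00862 had 11, 21 and 6 counts in NC and 145, 121 and 76 in LINC00862, so the vector's gene was higher in each library labelled for it (log2 fold change 3.22, edgeR adjusted p = 0.000583). Its level stayed low, at a mean of 0.0507 FPKM in NC and 0.449 FPKM in LINC00862, and 14.5% of all tested genes had a larger log2 fold change. Libraries of the same group were closely alike across the 20741 tested genes, with a Spearman correlation of FPKM between 0.969 and 0.983, against 0.719 to 0.733 between the groups. Genes are not independent replicates, so this is a description. Markers of cell identity moved with the groups. Of 8 hepatocyte markers, 7 could be tested, 6 rose and SERPINA1 fell, and their summed level went from between 2.94 and 3.46 FPKM in NC to between 538.6 and 617.8 FPKM in LINC00862, nearly all of it FGB. The defining hepatocyte genes ALB and HNF4A were at a mean of 0.00781 and 0.00237 FPKM in NC and 1.51 and 0.0447 FPKM in LINC00862. AFP was at 0.104 FPKM in NC and listed at 0 in each LINC00862 library. GPC3 and IGF2 were listed at 0 in NC and were near 0 in LINC00862 too, at means of 0.0256 and 0.0132 FPKM, and neither could be tested. The 6 mesenchymal or fibroblast markers summed to between 600.8 and 658.7 FPKM in NC and to between 14.8 and 19.3 FPKM in LINC00862, where 5 fell and COL1A1 rose. VIM, the main filament protein of mesenchymal cells, was at a mean of 538.9 FPKM in NC and 3.77 FPKM in LINC00862, and EPCAM, an epithelial adhesion protein, at 0.547 and 159.8 FPKM. Of 5 epithelial markers 4 rose, and KRT8 did not pass the test (adjusted p = 0.211 from edgeR), with sums of 193.6 to 287.3 and 437.0 to 500.2 FPKM. Of 3 macrophage markers 2 rose (2.42 to 3.29 and 8.65 to 14.6 FPKM), and of 3 endothelial markers 1 rose (0.995 to 1.503 and 4.26 to 5.82 FPKM). The part of these marker changes in the results below was not tested. Since the control and the LINC00862 libraries come from separate cell populations, an effect of the lncRNA and a difference between those populations, a different line included, cannot be told apart, and this holds for every fold change given here.

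All 9 members rose in LINC00862 by the quasi-likelihood test of edgeR, with p-values adjusted after Benjamini and Hochberg over the whole table, and 0 fell. The background was high, since 34.4% of all 20741 tested genes were called higher by the same test and 29.8% lower, 64.2% in all. Since the set was chosen with such results known, the count of 9 is a description and not independent evidence that such genes rose. The median log2 fold change of the members was 1.22, against 0.11 for all tested genes. Of the 9, 6 rose by at least 2-fold, as did 28.9% of all tested genes, and 4 passed a test against a fold change of 2, as did 23.2%. The members' summed level was between 132.6 and 154.8 FPKM in NC and between 234.5 and 282.1 FPKM in LINC00862, without overlap. In bulk libraries, more cells that express a gene and more of its RNA per cell cannot be told apart. In CPM, counts relative to the library total, after TMM scaling, which sets libraries by the bulk of their genes, the groups did not overlap for any of the 9, whereas 38.4% of all tested genes were higher without overlap. In FPKM, scaled by the authors, 7 of the 9 did not overlap, against 34.4% of all tested genes that were higher without overlap and 71.1% without overlap in either direction, and the exceptions were TXNRD1 and SRXN1.

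**Figure D1:**
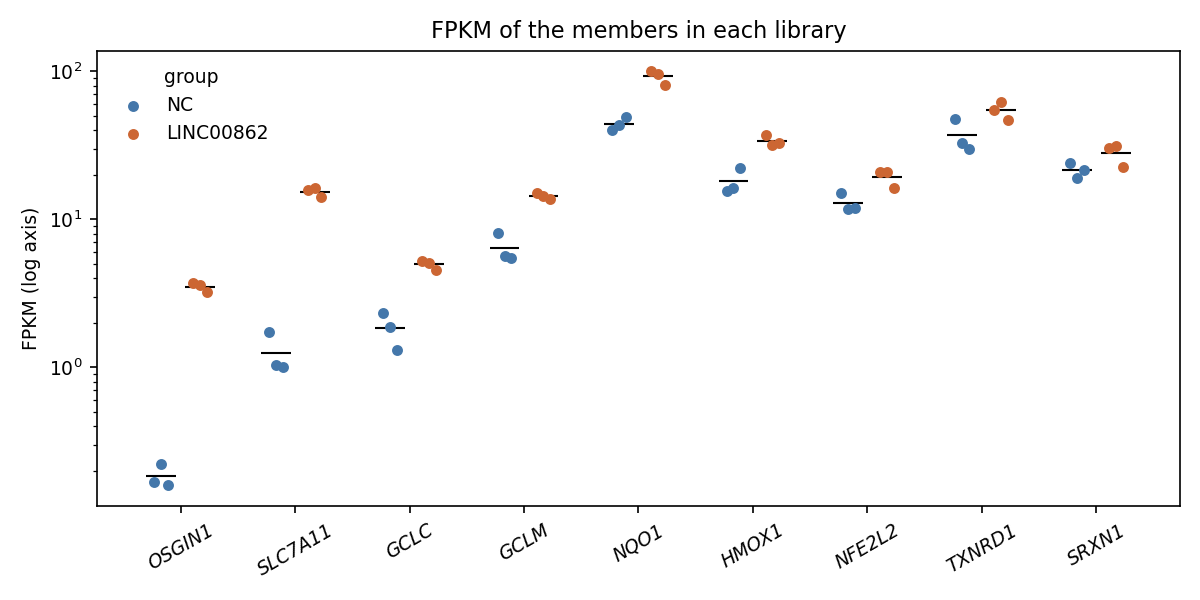
FPKM (log axis) of the 9 members in each library, ordered by fold change, with NC in blue, LINC00862 in orange and the group mean as a black line. OSGIN1 and SLC7A11 lie far apart between the groups, while the groups of TXNRD1 and SRXN1 overlap.

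NFE2L2 (ENSG00000116044, chr2:177227595-177287777, minus strand) is placed by the deposited table on hg38, as are the other members. Its FPKM was 15.0, 11.8 and 11.9 in NC replicates 1, 2 and 3 and 20.7, 20.9 and 16.2 in those of LINC00862. The highest NC library stayed below the lowest LINC00862 library, by a narrow margin. The mean rose from 12.9 ± 1.85 FPKM (SD, n = 3) to 19.3 ± 2.66 FPKM (SD, n = 3), and the log2 fold change from edgeR was 0.75 with a 95% interval of 0.44 to 1.07 (adjusted p = 0.00115). Among all tested genes, 36.3% had a larger log2 fold change, so the rise of the transcript was moderate in these data. NRF2 is mainly controlled as a protein, and its protein was not measured here. The lncRNA gene AC079305, on the opposite strand within NFE2L2, had at most 15 counts in any library. On the same strand, AC019080 overlaps the start of NFE2L2 and had 149, 85 and 78 counts in NC and 38, 56 and 70 in LINC00862, and reads in the shared stretch could be given to either.

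SLC7A11, GCLC and GCLM serve the synthesis of glutathione, the main small antioxidant of the cell. SLC7A11 (ENSG00000151012, chr4:138164097-138242349, minus strand) is the cystine carrier of system xc-, which brings in the cysteine that glutathione needs. Its counts were 1106, 657 and 649 in NC and 11619, 10429 and 9093 in LINC00862. The FPKM was 1.73, 1.04 and 1.01 in NC and 15.8, 16.4 and 14.1 in LINC00862. NC replicate 1 was the highest of its group, yet the lowest LINC00862 library was well above it. The log2 fold change was 3.80, a fold of 13.9, with a 95% interval of 3.34 to 4.26 on the log2 scale (edgeR adjusted p = 6.5e-07), and 12.6% of all tested genes rose by more. The antisense gene SLC7A11-AS1, which overlaps it, had 13, 0 and 0 counts in NC and 31, 34 and 44 in LINC00862.

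GCLC and GCLM are the catalytic and the modifier subunit of glutamate-cysteine ligase, the rate-limiting enzyme of glutathione synthesis. GCLC (ENSG00000001084, chr6:53497341-53616970, minus strand) had an FPKM of 2.32, 1.87 and 1.32 in NC and 5.24, 5.11 and 4.57 in LINC00862. GCLM (ENSG00000023909, chr1:93885199-93909456, minus strand) had an FPKM of 8.03, 5.63 and 5.45 in NC and 15.2, 14.3 and 13.7 in LINC00862. For both subunits each LINC00862 library lay above each NC library, and NC replicate 1 was the highest control. The log2 fold change of GCLC was 1.62 (95% interval 1.202 to 2.04, edgeR adjusted p = 6.25e-05) and that of GCLM was 1.36 (95% interval 1.01 to 1.71, edgeR adjusted p = 6.2e-05). GCLM held the higher FPKM of the pair in each library, and in NC the levels of GCLC and SLC7A11 overlapped. The lncRNA gene LINC01564, opposite to the start of GCLC, had 0 counts in each NC library and 101, 77 and 107 in LINC00862.

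TXNRD1 and SRXN1 keep protein thiols reduced. TXNRD1 is the cytosolic thioredoxin reductase, and SRXN1, sulfiredoxin, restores peroxiredoxins that hydrogen peroxide has over-oxidised. TXNRD1 (ENSG00000198431, chr12:104215779-104350307, plus strand) had an FPKM of 47.8, 33.0 and 30.0 in NC and 54.5, 61.8 and 47.0 in LINC00862. NC replicate 1 was slightly above LINC00862 replicate 3 on this scale, so the groups overlapped. SRXN1 (ENSG00000271303, chr20:646615-653200, minus strand) had an FPKM of 23.9, 19.1 and 21.5 in NC and 30.5, 31.0 and 22.4 in LINC00862. Here too NC replicate 1 exceeded LINC00862 replicate 3. In CPM after TMM scaling the order changed, with at most 315.3 in NC and at least 403.4 in LINC00862 for TXNRD1, and at most 59.8 and at least 72.4 for SRXN1. The log2 fold change was 0.74 for TXNRD1 (95% interval 0.36 to 1.13, edgeR adjusted p = 0.00415) and 0.55 for SRXN1 (95% interval 0.22 to 0.88, edgeR adjusted p = 0.00882). SRXN1 had the smallest rise of the 9, and its call was lost when the libraries were scaled by size only (adjusted p = 0.0789), when FPKM was tested with limma, and without LINC00862 replicate 1 (adjusted p = 0.051). The pseudogene RPL18AP3, within TXNRD1 on the same strand, had between 3146 and 6845 counts in the 6 libraries, and reads of its parent gene can be counted there.

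NQO1 and HMOX1 are the detoxifying targets most often used as a readout of NRF2. NQO1 reduces quinones in a single step that spares the cell from radicals, and HMOX1 breaks heme down to biliverdin, carbon monoxide and iron. NQO1 (ENSG00000181019, chr16:69706996-69726668, minus strand) had an FPKM of 40.1, 43.6 and 48.95 in NC and 99.6, 96.1 and 80.7 in LINC00862, the highest level of all members in both groups, although in NC it overlapped with TXNRD1. The mean went from 44.2 ± 4.45 (SD, n = 3) to 92.1 ± 10.03 FPKM (SD, n = 3), with a log2 fold change of 1.22 (95% interval 0.86 to 1.58, edgeR adjusted p = 0.00014). HMOX1 (ENSG00000100292, chr22:35380361-35390293, plus strand) had an FPKM of 15.7, 16.4 and 22.2 in NC and 37.0, 31.7 and 32.6 in LINC00862, and its log2 fold change was 1.07 (95% interval 0.64 to 1.501, edgeR adjusted p = 0.000996). In both genes NC replicate 3 was the highest control library and NC replicate 1 the lowest, the reverse of the glutathione genes.

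OSGIN1 (ENSG00000140961, chr16:83931311-83966332, plus strand) encodes a growth inhibitor induced by oxidative stress. Its counts were 63, 83 and 61 in NC and 1572, 1325 and 1215 in LINC00862. The FPKM was 0.169, 0.2245 and 0.160 in NC and 3.69, 3.61 and 3.25 in LINC00862, so the gene was at the bottom of the set in both groups. It nevertheless rose by the largest factor of the 9, with a log2 fold change of 4.39, a fold of 21.0, and a 95% interval of 3.88 to 4.91 (edgeR adjusted p = 5.42e-07). Of all tested genes 11.0% rose by more. The start of OSGIN1 in the table overlaps the end of MLYCD on the same strand, and MLYCD had 214, 153 and 153 counts in NC and 1252, 1168 and 817 in LINC00862, so reads in the shared stretch could be given to either.

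**Figure D2:**
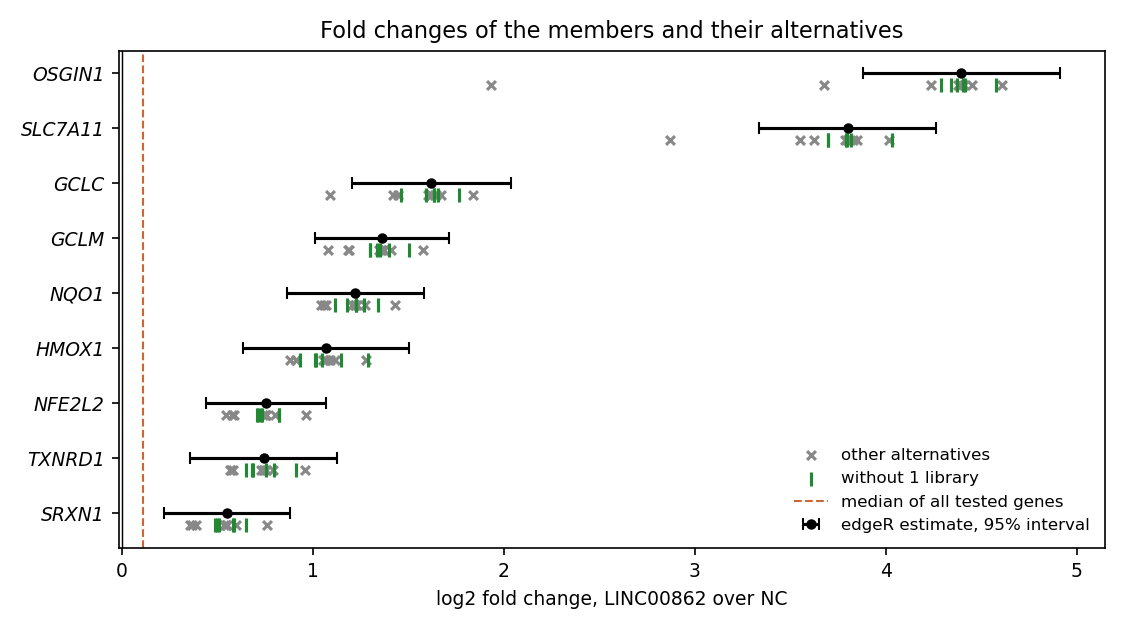
Log2 fold changes of the members (LINC00862 over NC) with their 95% intervals from edgeR as black circles, and below each the values from fits without 1 library (green bars) and from the other alternatives (grey crosses). All values are above 0 and above the median of all tested genes (dashed line, 0.11), and the lowest values of OSGIN1 and SLC7A11 come from limma-trend on log2(FPKM + 1), 1.93 and 2.87.

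Across the set, 7 members rose by between 1.46-fold and 3.07-fold, and SLC7A11 and OSGIN1 rose by 13.9-fold and 21.0-fold. The intervals of these 2 genes began at 3.34 and 3.88 on the log2 scale and did not reach those of the other 7, whose highest bound was 2.04. By FPKM, the order in LINC00862 ran NQO1, TXNRD1, HMOX1, SRXN1, NFE2L2, SLC7A11, GCLM, GCLC and OSGIN1. The levels of NFE2L2 and SLC7A11, and of SLC7A11 and GCLM, overlapped between libraries, and the other neighbours did not. In NC the order differed in that SRXN1 stood above HMOX1, with overlap, and SLC7A11 came after GCLC. SLC7A11 thus moved from eighth to sixth place. Within the LINC00862 group, replicate 3 had the lowest FPKM for 8 of the 9 members, and HMOX1 was the exception. In that library the 10 most abundant genes took 29.2% of all counts, against 19.4% to 20.2% in the other LINC00862 libraries and 8.42% to 11.7% in NC, and in CPM after TMM scaling it was lowest for 5 members. The part of this share in the FPKM values was not tested. Within NC, replicate 1 was highest for 6 members, and replicate 3 was highest for NQO1 and HMOX1.

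**Figure D3:**
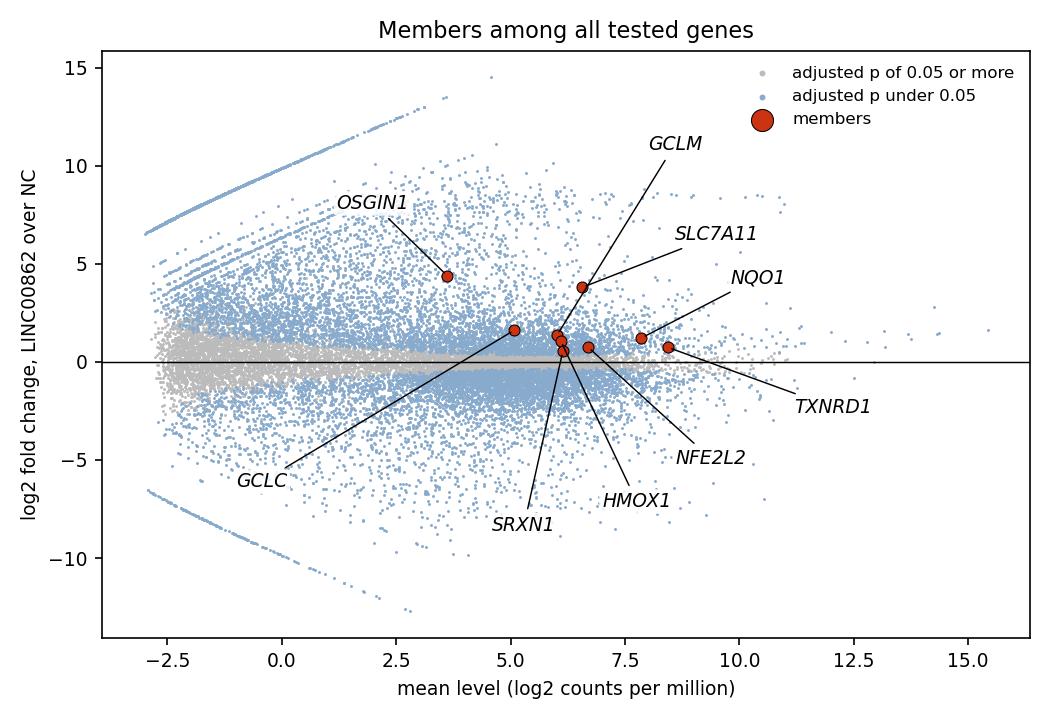
Log2 fold change (LINC00862 over NC) against mean level in log2 CPM for the 20741 tested genes, with the 9 members in red. The members all lie above 0, most of them inside the broad band of genes that rose, and OSGIN1 and SLC7A11 stand higher than the rest.

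A ratio of 2 genes within a library does not depend on how libraries are scaled, so 6 ratios of raw counts were compared between the groups by an exact two-sided permutation test, whose smallest p with 3 libraries against 3 is 0.1. The ratio of NFE2L2 to its repressor KEAP1 was 1.54, 1.21 and 0.943 in NC and 2.61, 2.57 and 3.07 in LINC00862, 2.27-fold higher without overlap (exact permutation p = 0.1, 0.15 after adjustment over the 6 ratios). The ratio of SLC7A11 to SLC3A2, the heavy chain with which it forms the cystine carrier, was 0.0635, 0.0346 and 0.0307 in NC and 0.232, 0.226 and 0.279 in LINC00862. It was 6.01-fold higher, also without overlap (exact permutation p = 0.1, 0.15 after adjustment). The ratio of NQO1 to NFE2L2 was 1.39-fold higher and that of GCLC to GCLM 1.21-fold higher, both without overlap and at the same p, the latter with values from 0.387 to 0.529 in NC and from 0.532 to 0.567 in LINC00862. TXNRD1 to SRXN1 (1.16-fold, exact permutation p = 0.3, adjusted 0.36) and HMOX1 to NQO1 (0.907-fold, exact permutation p = 0.4, adjusted 0.4) overlapped between the groups. No ratio could pass a threshold of 0.05 in this design.

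**Figure D4:**
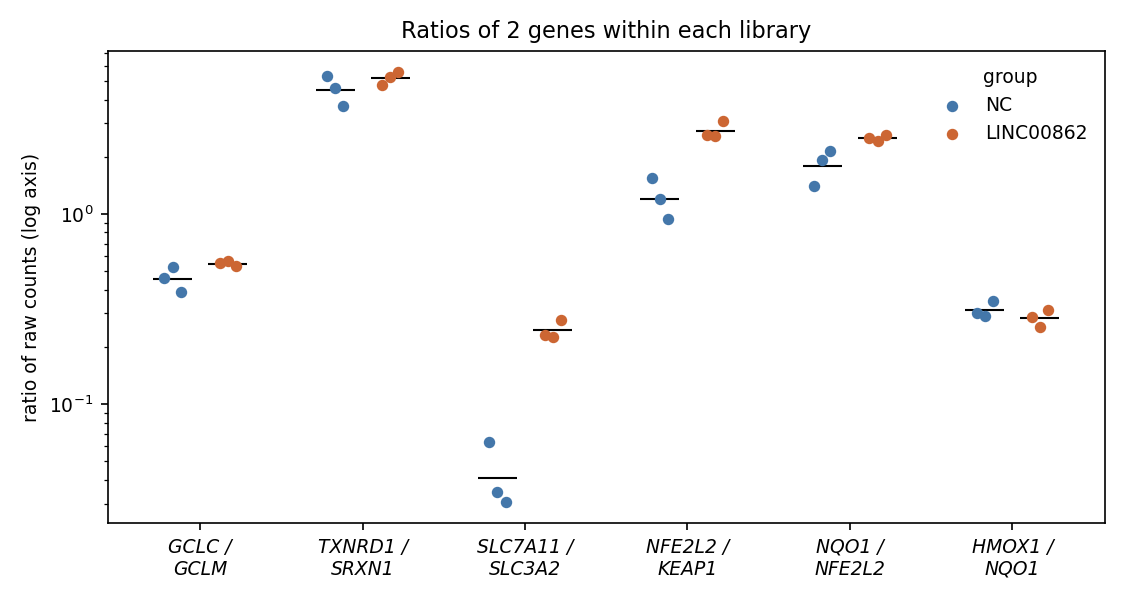
Ratios of raw counts of 2 genes within each library (log axis), NC in blue and LINC00862 in orange, with the geometric mean of the group as a black line. SLC7A11 to SLC3A2 and NFE2L2 to KEAP1 are clearly apart, and TXNRD1 to SRXN1 and HMOX1 to NQO1 overlap.

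Transcripts of the proteins that control NRF2, listed together with paralogs of NFE2L2, went both ways. Of 10 listed genes 2 rose, 5 fell and 3 did not pass the test, while 34.4% of all tested genes were called higher and 29.8% lower. KEAP1 had 15.45, 15.5 and 19.98 FPKM in NC and 12.6, 12.9 and 8.37 in LINC00862. Each LINC00862 library was below each NC library, but the log2 fold change of -0.43 (95% interval -0.87 to 0.00) did not pass the test (edgeR adjusted p = 0.0749), and it did under library size scaling (-0.58, adjusted p = 0.0327), with limma on FPKM and without NC replicate 1 (-0.54, adjusted p = 0.0295). SQSTM1, the autophagy adaptor that can sequester KEAP1, rose by 0.82 on the log2 scale (edgeR adjusted p = 0.002). BACH1 fell by 0.51 (edgeR adjusted p = 0.0471), a call that was lost in 11 of 15 alternatives, with -0.27 without NC replicate 1. The small MAF partners went apart. MAFK rose 6.15-fold, from between 6.69 and 7.24 FPKM to between 36.5 and 39.6 FPKM (edgeR adjusted p = 7.47e-07), whereas MAFF had between 5.01 and 5.77 FPKM in NC and between 1.03 and 1.41 in LINC00862, a log2 fold change of -1.92 (edgeR adjusted p = 1.38e-05). MAFG had a log2 fold change of -0.07 (edgeR adjusted p = 0.777), whose sign changed with upper quartile scaling. NFE2L3, a paralog of NFE2L2, fell by 1.95 (edgeR adjusted p = 3.97e-06), from between 8.82 and 11.0 FPKM to between 2.195 and 2.235 FPKM.

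The other genes of the antioxidant system were sorted into 7 further lists, which with the NRF2 controls hold 67 genes. Of the 66 that could be tested, 31 rose and 18 fell, and their median on the log2 scale was 0.30, against 0.11 for all tested genes. By the same test 34.4% of all tested genes were called higher and 29.8% lower, which is the background for the counts of each list. Among 11 tested genes of glutathione use and recycling, 6 rose and 3 fell. GGT1, which breaks down extracellular glutathione and has close paralogs that can share its reads, rose from 21, 86 and 17 counts to 2241, 1968 and 1694 (log2 fold change 5.64, edgeR adjusted p = 3.07e-05), and to 6.80 without NC replicate 2. SLC3A2 rose by 1.24 (edgeR adjusted p = 0.00024). GPX1, a peroxidase that spends glutathione, fell by 1.48 (edgeR adjusted p = 0.000479), from between 144.9 and 255.3 FPKM to between 56.4 and 70.7 FPKM.

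Of 10 thioredoxin and peroxiredoxin genes, 2 rose, 4 fell and 4 did not pass the test. PRDX4, the peroxiredoxin of the endoplasmic reticulum, rose 3.01-fold, and PRDX1, a cytosolic peroxiredoxin and itself a known NRF2 target, fell by 1.49 on the log2 scale (edgeR adjusted p = 0.000141), from between 259.1 and 374.8 FPKM to between 92.2 and 109.5 FPKM, opposite in direction to the 9 members. The NADPH supply was likewise split, with 2 of 6 genes higher and 3 lower. IDH1 rose 5.73-fold to between 80.5 and 88.7 FPKM. In heme and iron handling 1 of 6 rose, BLVRB, which reduces flavins and biliverdin, by 1.72 (edgeR adjusted p = 0.000293), and 1 fell, FECH, which inserts iron into heme, by 0.98 (edgeR adjusted p = 0.000951).

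Among 12 other widely used NRF2 targets, 8 rose and 2 fell, and the median log2 fold change of 2.29 was above that of the members. This list does not hold every known NRF2 target, so its counts do not stand for all of them. Others were counted in the other lists and went both ways, PRDX1 among those that fell. AKR1C2, an aldo-keto reductase, had the largest rise, from 87, 93 and 94 counts to 27616, 22727 and 19989 (log2 fold change 8.09, edgeR adjusted p = 2.63e-08). Its sequence is close to that of AKR1C1, so how their reads were divided is uncertain. CBR3, a carbonyl reductase, fell by 1.08 (edgeR adjusted p = 0.0161), and by 0.68 without NC replicate 3, when the call was lost (adjusted p = 0.054), as it was without LINC00862 replicate 1 or 3 (edgeR adjusted p = 0.0631 and 0.0517). Of 4 superoxide and hydrogen peroxide enzymes 3 rose, among them mitochondrial SOD2 at 3.40-fold (edgeR adjusted p = 5.38e-06) and another from at most 7 counts in any NC library, and 0 fell. All 7 genes of the ATF4 stress programme rose, and ATF4 is a second known activator of SLC7A11. ASNS, asparagine synthetase and a classical ATF4 target, had between 4.004 and 4.46 FPKM in NC and between 45.1 and 54.2 FPKM in LINC00862 (log2 fold change 3.76, edgeR adjusted p = 9.85e-08). Which factor bears on SLC7A11 in these cells was not tested.

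**Figure D5:**
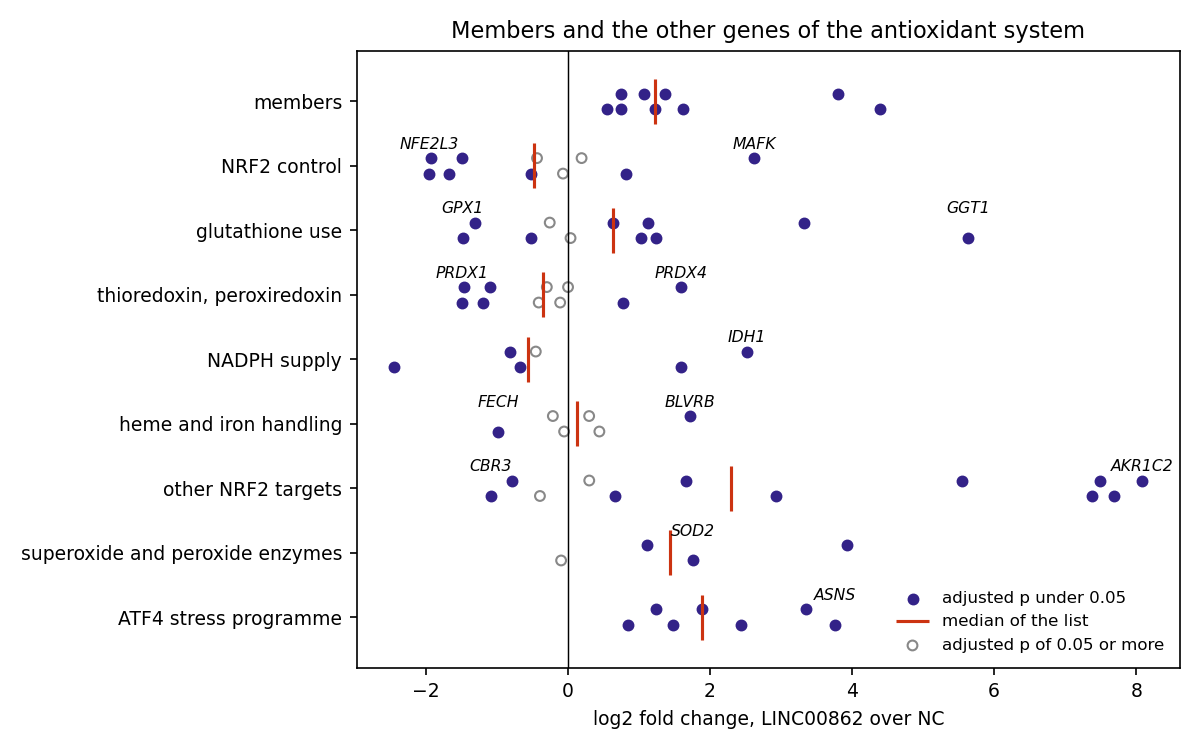
Log2 fold changes (LINC00862 over NC) of the members and of the 8 other lists, filled circles for an adjusted p under 0.05, open circles otherwise, and a red line at the median of each list. The members and the ATF4 stress programme lie wholly above 0, and the lists of NRF2 control, thioredoxin and peroxiredoxin, and NADPH supply have medians below 0.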

How the data were processed

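RNA sequencing data of 3 NC and 3 LINC00862 libraries were used, grouped by their labels. The deposited table pairs raw counts for each gene with FPKM, which the authors scaled by transcript length and library. The submitters' processing notes name cutadapt 1.9, HISAT2 2.0.4, UMI-tools, StringTie 1.3.4d, DESeq2, edgeR and hg38, and strand use in counting is not given in the sources used here. Counts were tested with edgeR 4.0.16 in R 4.3.3 (filterByExpr, TMM, quasi-likelihood test, Benjamini-Hochberg adjustment over all tested genes, false discovery rate 0.05). Standard errors and 95% intervals were derived from the test statistic. The scripts were tested on simulated data with 200 changed genes, where 31.6% of 2-fold and 64.3% of 4-fold changes were called. In the real data 64.2% of tested genes were called, so the simulation does not test the scaling under so wide a change. Alternatives were DESeq2 1.42.0, limma 3.58.1, other scalings and filters, a replicate block and leaving out each library. The 9 members and the lists were chosen with earlier results of these data known. Of the lists, the text names the direct partners of members and, in each list and direction, the called gene with the largest change, provided that its mean reached 1 FPKM in a group. A gene that this rule names is not reported here. Libraries held 58241123 to 68229070 counts, and the lowest count of a member was 61.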

Additional observations from a re-analysis of the deposited data

How the results depend on the processing

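The 9 members kept their direction in each of the 15 alternatives. Asking for more than a 2-fold change (the test against a fold change of 2) called 4 members higher, as it did 4806 of the 20741 tested genes (23.2%). In either direction it called 8010 genes. It lost NFE2L2 (0.75), NQO1 (1.22), HMOX1 (1.07), TXNRD1 (0.74) and SRXN1 (0.55), and left 3 called genes in the lists of glutathione, of thioredoxin and of NADPH supply and 1 in heme and iron handling. SRXN1 was also lost under library size only (0.39), limma-trend on log2(FPKM + 1) (0.36) and on log2(FPKM + 0.1) (0.37), and ranged from 0.48 to 0.65 across the fits without 1 library, lost without LINC00862 replicate 1. MAFG changed sign with upper quartile scaling (0.14) and ranged from -0.17 to 0.12 across the fits without 1 library. The cause was not tested. Scaling shifted the median of the whole table, on the log2 scale, from 0.11 under TMM to 0.32 under upper quartile and to -0.05 under library size only, and the median of the members from 1.22 to 1.43 and 1.07. The median of the heme and iron list (0.12) was below 0 with library size only (-0.02). Replicate numbers did not pair the libraries (correlations of deviations -0.11, -0.11 and -0.08); with a replicate block 12098 genes and all 9 members were called. LINC00862, with few counts, ranged from 2.91 to 3.83 across the fits without 1 library, the highest without NC replicate 2. Depth limits values that rest on few NC counts, among them SOD3 (0 to 7), LINC00862 (6 to 21), AKR1B10 (12 to 40), GGT1 (17 to 86) and, of the members, OSGIN1 (61 to 83).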

Other observations

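Several genes outside the naming rule, chosen here after their values were seen, had large differences between the groups. ABCC2, an export pump for glutathione conjugates, had 0.158 ± 0.0210 FPKM (SD, n = 3) in NC and 23.7 ± 1.07 FPKM (SD, n = 3) in LINC00862 (log2 fold change 7.38, edgeR adjusted p = 3.26e-08). AKR1B10, an aldo-keto reductase, had 0.195 ± 0.124 and 32.1 ± 3.43 FPKM (SD, n = 3 each). UGDH, which makes the UDP-glucuronic acid used in conjugation, rose 7.60-fold. CHAC1, which degrades glutathione, rose 10.1-fold, in the same libraries in which SLC7A11, GCLC and GCLM rose. GPX4, the peroxidase that protects membrane lipids, fell by 1.31 on the log2 scale (edgeR adjusted p = 0.000823). TXN, the substrate of TXNRD1 and itself a known NRF2 target, fell by 1.46 (edgeR adjusted p = 0.000253). Other known NRF2 targets went both ways on that scale, with PGD and TKT lower by 0.82 and 0.67 and ME1 and GSR higher by 1.59 and 0.64. CUL3 and RBX1, parts of the ligase that degrades NRF2, fell by 1.495 and 1.68 (edgeR adjusted p = 4.99e-05 and 0.000163).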
